A study of Mus musculus with 12 samples.

Results

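The 10 genes described here act in making, moving, removing or sensing adenosine. They were taken as every array probe whose single gene symbol in the platform annotation is Adora1, Adora2b, Adora3, Adk, Ada, Slc29a1, Slc29a2, Nt5e, Entpd1 or Entpd2. This gave 17 of 45281 probes, for 8 of the 10 genes, on an array naming 19057 genes. The adenosine receptor genes Adora1 and Adora2b were named for no probe and were not analysed here, and neither was the striatal receptor gene Adora2a. Of the receptors, the probes therefore covered Adora3 alone. Of the 17 probes, 10 probes of 5 genes (Adk, Slc29a1, Slc29a2, Nt5e and Entpd2) were detected often enough to be tested, and 7 probes of Adora3, Ada and Entpd1 were not.

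RNA came from the caudate putamen, the dorsal striatum, of male C57BL/6J mice aged 12 weeks. In the ethanol-exposed group (6 samples) the mothers drank 10% (v/v) ethanol by choice from 0.5 to 8.5 days after mating, and the other group (6 samples) were controls, whose mothers' drink is not described in the labels used here. Each sample was hybridised to 1 Illumina bead array, and the titles place 3 ethanol-exposed and 3 control samples on each of 2 chips, here chip 1 (replicates 1 to 3 of each group) and chip 2 (replicates 4 to 6). Separate mice or litters are not stated for the samples, so the spread behind each p-value is that of these samples and may be technical.

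Adenosine restrains transmitter release and neuronal firing, and in the striatum it opposes dopamine signalling on projection neurons. Outside the cell it is formed from ATP in steps, by enzymes of the Entpd family and then by the 5'-nucleotidase encoded by Nt5e. Equilibrative transporters (Slc29a1 and Slc29a2) carry it across the membrane, and inside the cell adenosine kinase (Adk), in adult brain mainly an astrocyte enzyme, or adenosine deaminase (Ada) removes it. Ethanol is known in cultured cells to inhibit the transporter encoded by Slc29a1.

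The 12 arrays detected 19452 to 21949 probes at a detection p under 0.05, and the raw median intensity ran from 136.1 to 153.2. Of 20 markers of striatal projection neurons, 18 were detected on all 12 arrays. Adcy5 had a named probe that was detected on 0 arrays. Ethanol 3 and ethanol 4 stood apart in thalamus markers, with mean log2 intensities of 8.80 and 8.88, against 7.76 to 7.83 in the other 4 ethanol-exposed samples and 7.88 to 8.18 in controls. They were extreme in other marker lists too. Ethanol 3 was highest of all samples in choroid plexus (11.07) and oligodendrocyte (12.29) markers and lowest in striatal projection neuron markers (12.03). Ethanol 4 was lowest in oligodendrocyte (10.93) and ependyma (6.57) markers. The tissue was measured in bulk, so fewer cells of a type and less RNA per cell cannot be told apart.

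The promoter windows of 3 genes are shown because they differ in CpG content. The probes of Adk and Entpd2 were detected on all 12 arrays, and those of Adora3 on 0. Each runs from 250 bases before to 50 after a transcript start, 5′ to 3′ on the gene's strand, from RefSeq (GRCm38.p6), with every CpG dinucleotide in capitals. The windows are Adora3 at chr3:105904171-105904470 (+ strand), the first of 2 windows of Adk at chr14:21052324-21052623 (+ strand), and Entpd2 at chr2:25395624-25395923 (+ strand).
Adora3: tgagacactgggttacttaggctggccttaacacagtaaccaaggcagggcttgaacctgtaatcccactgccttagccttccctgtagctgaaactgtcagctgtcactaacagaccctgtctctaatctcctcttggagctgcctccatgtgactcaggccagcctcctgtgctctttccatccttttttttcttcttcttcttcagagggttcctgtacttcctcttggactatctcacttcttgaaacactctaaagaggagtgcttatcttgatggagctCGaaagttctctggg
Adk: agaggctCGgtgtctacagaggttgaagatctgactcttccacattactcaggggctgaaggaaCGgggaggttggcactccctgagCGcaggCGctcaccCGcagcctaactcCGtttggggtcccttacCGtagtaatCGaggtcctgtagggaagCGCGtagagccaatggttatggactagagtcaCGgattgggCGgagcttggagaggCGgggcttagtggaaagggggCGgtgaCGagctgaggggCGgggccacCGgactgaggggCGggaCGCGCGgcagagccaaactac
Entpd2: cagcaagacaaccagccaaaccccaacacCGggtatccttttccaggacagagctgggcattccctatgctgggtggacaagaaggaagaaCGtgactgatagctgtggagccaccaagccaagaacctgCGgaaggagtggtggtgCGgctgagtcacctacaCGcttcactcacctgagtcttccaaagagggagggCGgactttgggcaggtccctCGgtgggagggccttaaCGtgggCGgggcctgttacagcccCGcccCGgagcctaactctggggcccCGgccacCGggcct
The motif searched was CG, which reads the same on both strands and cannot overlap itself. The window of Adora3 holds 1 CpG, and 94.6% of 32851 windows hold at least as many. The window of Adk holds 21, which 24.8% of windows reach, and its other window holds 33. That of Entpd2 holds 13, which 37.9% reach. Among genes with 1 window and a named probe, 10.4% of 1487 genes with at most 1 CpG had a tested probe, against 79.0% of 4893 genes with at least 20. Between these, the share was 34.3% of 4212 genes with 2 to 12 CpG and 73.1% of 2063 genes with 13 to 19. The other undetected genes went the other way, Ada with 20 CpG in its window and Entpd1 with 23 and 10 in its 2 windows. Nt5e and Slc29a2, both tested, had 23 and 20. Slc29a1, also tested, had 8 windows holding 3 to 30.

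Adora3, the A3 receptor gene, was not detected on any array by its 3 probes. The rule was a detection p under 0.05, with the lowest detection p at 0.0694 in the brightest of them, ILMN_3061260. That probe had log2 intensities of 4.68 to 5.03 (median 4.89) in ethanol-exposed samples, against 4.82 to 5.08 (median 4.97) in controls, where the lowest value of any probe on any array was 4.29. The 2 probes of Ada, the deaminase that turns adenosine into inosine, were likewise detected on 0 arrays, with the lowest detection p at 0.0524. Both probes of Entpd1 were further from detection still, with no detection p under 0.535. Entpd1 encodes CD39, known from microglia and blood vessels. Markers of those cells were measured in the same samples, 11 of 14 microglia markers and 10 of 14 vascular markers being detected on all 12 arrays. All 7 of these probes lay near background in both groups, and no difference between the groups is given for them.

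**Figure D1:**
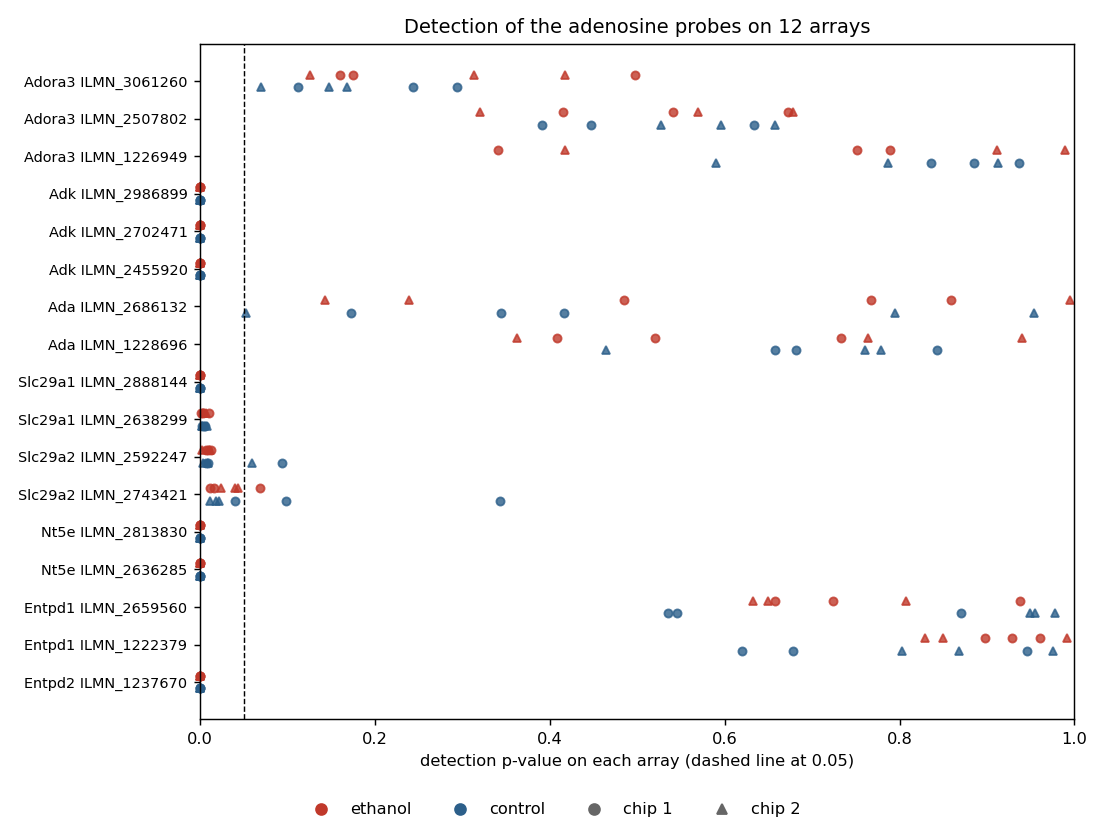
Detection p-value (x axis, linear, no unit) of each of the 17 adenosine probes on each of 12 arrays, with ethanol-exposed samples above controls in each row, circles for chip 1 and triangles for chip 2. The 7 probes of Adora3, Ada and Entpd1 lie right of the dashed line at 0.05 on every array, Slc29a2 lies on both sides of it, and the rest lie left of it.

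Expression of the tested genes did not pass the test for a difference after early ethanol exposure. After Benjamini-Hochberg adjustment limma's test called 0 of the 10 probes, and 0 of 20296 over the whole array (0%). At an unadjusted p under 0.05 it called 1 of the 10, against 5.79% of all tested probes. That probe was called higher in ethanol-exposed samples, as were 2.90% of all tested probes. Called lower were 0 of the 10, against 2.89%. At any p, 5 of the 10 probes had higher means in ethanol-exposed samples (50.2% of all tested probes) and 5 had lower ones. Over all 12 samples the log2 differences (ethanol minus control) ran from −0.085 to 0.28, beside a median of 0.00037 over all tested probes. The groups overlapped in each of the 10 probes, against 0.266% of all tested probes whose groups did not.

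Entpd2, an ectonucleotidase that turns ATP mainly into ADP and in mouse brain is known from neural progenitors, was the probe with the unadjusted p under 0.05. Its single probe ILMN_1237670 had log2 intensities of 8.90, 8.61 and 9.02 in the ethanol-exposed samples of chip 1, against 8.53, 8.59 and 8.53 in controls of chip 1. On chip 2 it had 9.18, 8.63 and 8.72 in ethanol-exposed samples, against 8.47, 8.71 and 8.52 in controls. All 6 ethanol-exposed samples lay above the control mean and 4 of them above the highest control, with ethanol 4 the highest. The mean was 8.84 ± 0.23 in ethanol-exposed samples and 8.56 ± 0.08 in controls (SD, n = 6 each), a log2 difference of 0.28 (SE 0.10, 95% interval 0.064 to 0.50), or 1.22-fold. It did not pass adjustment (unadjusted p = 0.0146, adjusted p = 0.845 in limma's test). The difference was 0.29 on chip 1 and 0.28 on chip 2. Without ethanol 3 and ethanol 4, which stood apart in thalamus markers, it was 0.15 (unadjusted p = 0.102 in limma's test). These were also the 2 samples highest in Entpd2, so the difference had to fall without them, whatever their thalamus markers. Over the 12 samples Entpd2 and the mean of the 8 tested of 10 thalamus markers had r = 0.706 (permutation p = 0.0206, adjusted p = 0.248 over 60 relations) and rho = −0.042 (permutation p = 0.904, adjusted p = 0.972). Pearson's r was 0.624 on chip 1 and 0.773 on chip 2, each of which holds 1 of the 2 samples with high thalamus markers. The relation rested on these samples, with r = −0.681 without ethanol 3 and ethanol 4. Lef1 and Synpo2 were the thalamus markers below the detection filter, and the part of thalamic tissue in the Entpd2 values was not tested. Neurogenic niche markers, which include progenitor genes, also had higher means in ethanol-exposed samples for 6 of the 7 tested of 10. Their median log2 difference was 0.32. At an unadjusted p under 0.05 limma's test called 2 of the 7, against 5.79% of all tested probes. After adjustment 0 passed (smallest adjusted p = 0.845 in limma's test). The mean of these markers was 7.82, 7.14, 7.06, 7.52, 7.85 and 8.00 in ethanol 1 to ethanol 6, against 7.09 to 7.39 in controls. Over the samples their level had r = 0.196 and rho = 0.210 with Entpd2 (permutation p = 0.551 and 0.517, adjusted p = 0.807 and 0.777), with r of 0.339 on chip 1, 0.121 on chip 2 and 0.355 without ethanol 5 and ethanol 6, and their part was likewise not tested.

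Nt5e, which encodes CD73, the enzyme that forms adenosine from AMP outside the cell, varied widely within both groups. Its brighter probe ILMN_2813830 lay between 9.01 and 9.92 (median 9.50) in ethanol-exposed samples, against 9.20 to 9.87 (median 9.56) in controls. Ethanol 5 and ethanol 6 were lowest, and ethanol 2 and control 2 highest, so the range of the controls lay within that of the ethanol-exposed samples. The log2 difference was −0.085 (SE 0.17, adjusted p = 0.973 in limma's test), with a 95% interval from 0.73-fold to 1.22-fold. The dimmer probe ILMN_2636285 had 7.12 ± 0.26 in ethanol-exposed samples and 7.10 ± 0.20 in controls (SD, n = 6). Both probes followed each other over the samples (r = 0.781 and rho = 0.762, permutation p = 0.00433 and 0.00571, adjusted p = 0.013 and 0.0343 over 6 pairs of probes, n = 12). Without the 2 samples farthest from the median r was 0.718, and it was 0.684 on chip 1 and 0.904 on chip 2. The brighter probe was 0.42 lower (SE 0.14) on chip 2 than on chip 1 with group in the model, and did not pass adjustment (adjusted p = 0.348 in limma's test). In that test of chip 0 of the 10 probes passed, against 0.00985% of all tested probes.

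**Figure D2:**
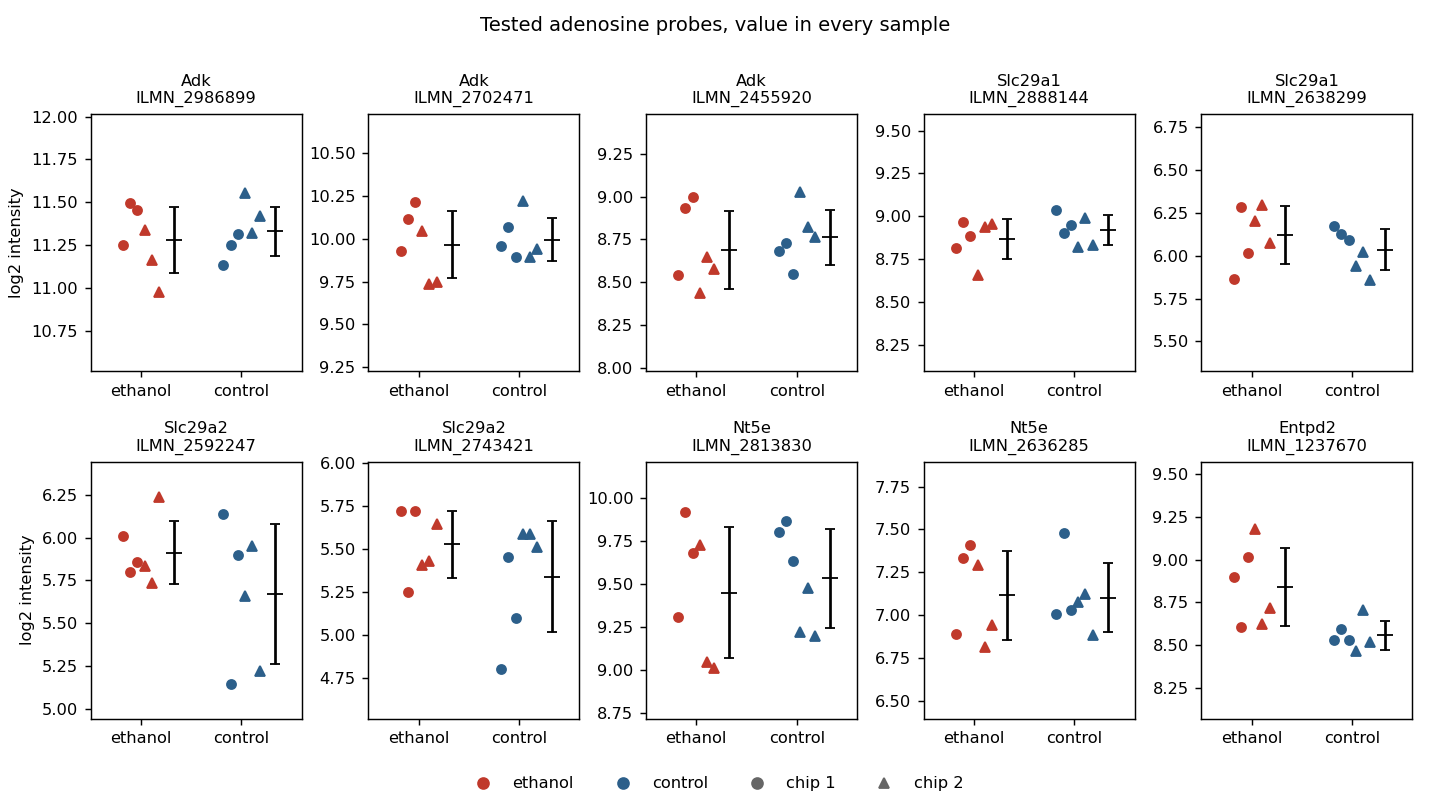
Log2 intensity (y axis, scale shifted by panel and equal in span) of the 10 tested adenosine probes in every sample, ethanol-exposed at left and control at right, with circles for chip 1, triangles for chip 2 and the mean ± SD (n = 6) as a bar beside each group. Every panel shows overlapping groups, and Entpd2 has 4 ethanol-exposed samples above the highest control.

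Slc29a1, the equilibrative transporter ENT1, varied little, its probe ILMN_2888144 having an SD of 0.10 over the 12 samples. That probe lay between 8.66 and 8.96 (median 8.91) in ethanol-exposed samples, against 8.82 to 9.04 (median 8.93) in controls. Ethanol 4 was the lowest sample and control 1 the highest. The log2 difference was −0.053 (SE 0.077, adjusted p = 0.961 in limma's test), with a 95% interval from 0.86-fold to 1.08-fold. The dimmer probe ILMN_2638299 differed the other way, by 0.088 (SE 0.092), and the pair followed each other only loosely over the samples (r = 0.271, permutation p = 0.399, and rho = 0.385, permutation p = 0.218, adjusted p = 0.479 and 0.262 over 6 pairs, n = 12). On chip 1 this r was 0.809 and on chip 2 −0.042, and without the 2 samples farthest from the median it was 0.716.

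Slc29a2, the transporter ENT2, lay at the edge of detection. Probe ILMN_2592247 was detected in 6 of 6 ethanol-exposed samples and 4 of 6 controls, and probe ILMN_2743421 in 5 ethanol-exposed samples and 4 controls. The first lay between 5.73 and 6.24 (median 5.84) in ethanol-exposed samples, against 5.15 to 6.14 (median 5.78) in controls, with control 2 and control 6 lowest. Its log2 difference was 0.24 (SE 0.16, adjusted p = 0.870 in limma's test). It was 0.14 without control 2, 0.15 without control 6, 0.33 without control 1 (the highest control) and 0.078 without background correction. The second lay between 5.25 and 5.72 (median 5.54) in ethanol-exposed samples, against 4.80 to 5.59 (median 5.48) in controls, with control 1 lowest. It differed by 0.19 (SE 0.14), by 0.081 without control 1, and by 0.45 on chip 1 and −0.069 on chip 2. The pair showed no clear relation over the samples (r = −0.142, permutation p = 0.667, and rho = 0.126, permutation p = 0.698, adjusted p = 0.667 and 0.698 over 6 pairs, n = 12), with r of −0.289 on chip 1, 0.394 on chip 2 and −0.139 without the 2 samples farthest from the median. The samples with low values were thus different ones for the 2 probes.

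Adk, the kinase that returns adenosine to AMP, had 3 probes detected on all 12 arrays. The brightest, ILMN_2986899, had log2 intensities of 11.25, 11.50 and 11.46 in the ethanol-exposed samples of chip 1, against 11.13, 11.25 and 11.32 in controls of chip 1. On chip 2 it had 11.34, 11.16 and 10.98 in ethanol-exposed samples, against 11.55, 11.32 and 11.42 in controls. Ethanol-exposed samples were thus mostly above their controls on chip 1 and mostly below them on chip 2, and control 4 was the highest of all. Over all samples the mean was 11.28 ± 0.19 in ethanol-exposed samples and 11.33 ± 0.14 in controls (SD, n = 6 each), a log2 difference of −0.052 (SE 0.10, adjusted p = 0.971 in limma's test, 95% interval from 0.83-fold to 1.12-fold).

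The other 2 Adk probes gave the same split by chip. Differences on chip 1 were 0.17, 0.11 and 0.17 for ILMN_2986899, ILMN_2702471 and ILMN_2455920, and those on chip 2 were −0.27, −0.18 and −0.32. The test of that difference itself, chip 2 minus chip 1, gave −0.44 (SE 0.17), −0.29 (SE 0.18) and −0.49 (SE 0.19), and none passed adjustment (unadjusted p = 0.0246, 0.142 and 0.024, adjusted p = 0.436, 0.614 and 0.434 in limma's test). Of the 10 adenosine probes 2 had an unadjusted p under 0.05 in this test, both of them for Adk, against 9.98% of all tested probes, and 0 of 20296 (0%) passed adjustment. On chip 1 alone 0 of the 10 probes had an unadjusted p under 0.05 for the groups, against 6.45% of all tested probes, and on chip 2 alone 1 did (Adk ILMN_2455920), against 10.1%. The 3 Adk probes share a gene and are not independent of each other. They followed each other over the 12 samples with r of 0.797, 0.657 and 0.650 and rho of 0.699, 0.608 and 0.566. Permutation p for r was 0.0022, 0.0202 and 0.0238 (adjusted p = 0.013, 0.0357 and 0.0357 over 6 pairs) and for rho 0.0145, 0.0399 and 0.060 (adjusted p = 0.0435, 0.0799 and 0.090). These r were 0.639, 0.551 and 0.314 without the 2 samples farthest from the median, 0.686, 0.720 and 0.960 on chip 1, and 0.885, 0.626 and 0.492 on chip 2.

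**Figure D3:**
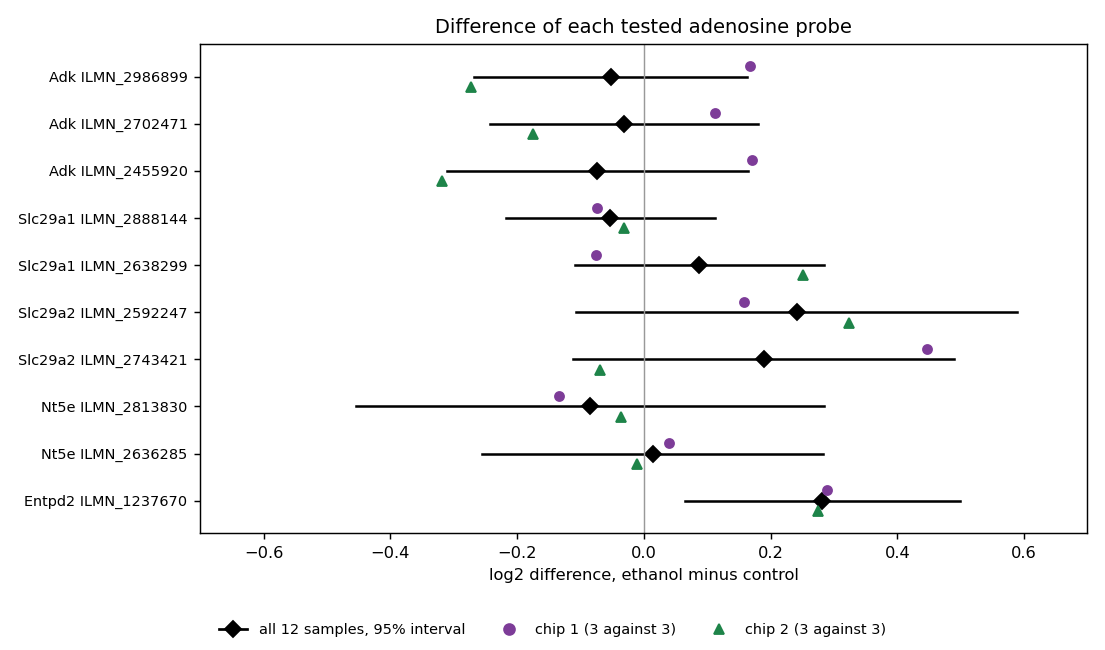
Log2 difference, ethanol minus control (x axis), of each tested adenosine probe, as a black diamond with its 95% interval over all 12 samples, a purple circle for chip 1 and a green triangle for chip 2 (3 samples against 3 each). The 3 Adk probes lie right of 0 on chip 1 and left of it on chip 2, while Entpd2 lies near 0.28 on both.

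Astrocyte markers moved with Adk from sample to sample. The mean log2 intensity of the 11 tested of 12 astrocyte markers lay between 10.45 and 10.96 in ethanol-exposed samples, against 10.54 to 10.98 in controls, and of the 12 only Mlc1 was detected on 0 arrays. On chip 1 the marker level was 10.56, 10.77 and 10.96 in ethanol-exposed samples, against 10.57, 10.60 and 10.54 in controls. On chip 2 it was 10.72, 10.45 and 10.49 in ethanol-exposed samples, against 10.98, 10.73 and 10.59 in controls. Control 4 and ethanol 3 had the most astrocyte signal and were among the 3 samples highest in the brightest Adk probe. The relation had r = 0.802 and rho = 0.832 (permutation p = 0.00151 and 0.00141, n = 12), and did not pass adjustment over the 60 relations of 5 genes with 12 marker lists, a family chosen after the values were seen (adjusted p = 0.0906 and 0.0846). It was 0.726 without ethanol 3 and control 4, 0.787 on chip 1 and 0.818 on chip 2. Other lists moved with Adk too. The 2 tested of 6 choroid plexus markers gave r = 0.698 and rho = 0.755 (permutation p = 0.0116 and 0.00664, adjusted p = 0.173 and 0.159), with r of 0.757 on chip 1, 0.792 on chip 2 and 0.633 without ethanol 3 and control 1. The 9 tested of 12 oligodendrocyte markers gave r = 0.566 and rho = 0.741 (permutation p = 0.0538 and 0.00795, adjusted p = 0.403 and 0.159), with r of 0.722 on chip 1, 0.485 on chip 2 and 0.817 without ethanol 3 and ethanol 4. The relation with astrocyte markers is therefore not particular to them, and the part of any of these cell types in the Adk values was not tested.

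**Figure D4:**
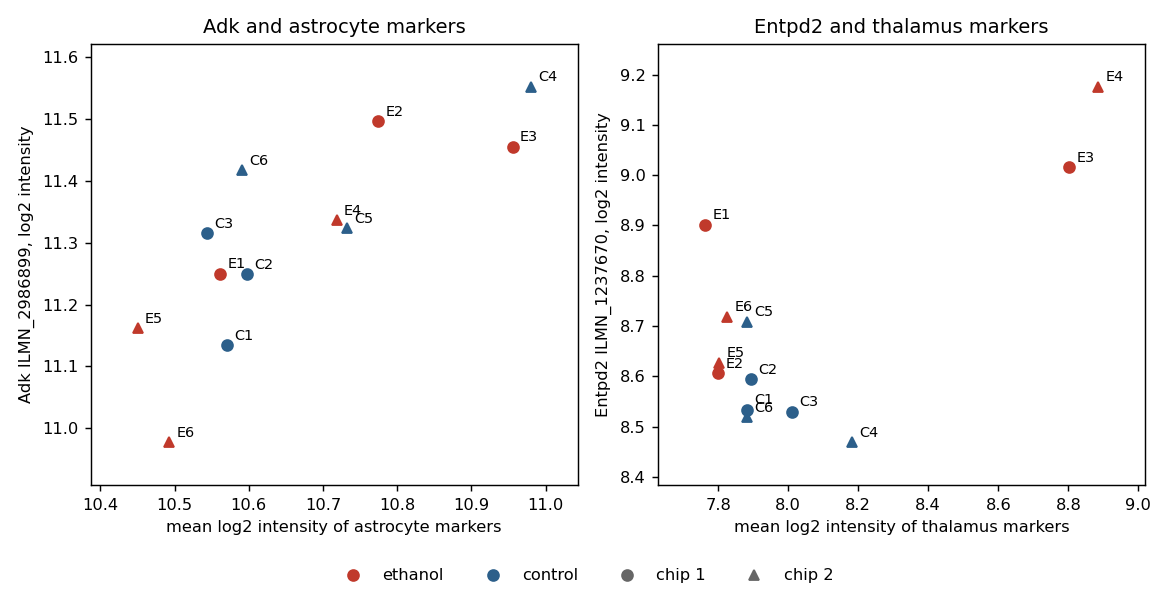
Left, log2 intensity of the brightest Adk probe (y axis) against the mean log2 intensity of astrocyte markers (x axis). Right, the Entpd2 probe against thalamus markers. Each point is a sample (E, ethanol, red; C, control, blue; circles chip 1, triangles chip 2, with the replicate number). Adk is high where astrocyte markers are high on both chips, and in the right panel ethanol 3 and ethanol 4 stand apart from the other 10 samples.

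Other genes of purine signalling were taken from 5 lists, each gene by its brightest tested probe. Of P2 receptors, which bind ATP and other nucleotides, 7 of 15 genes were tested, 5 with higher and 2 with lower means in ethanol-exposed samples, with a median log2 difference of 0.17. P2rx7, an ATP-gated channel, had 5.41 to 6.06 (median 5.73) in ethanol-exposed samples, against 4.87 to 5.62 (median 5.13) in controls, with overlapping groups. Its only tested probe, ILMN_3162824, was detected in 5 ethanol-exposed samples and 2 controls, so it passed the filter mainly through the group where it was higher. The other P2rx7 probes (ILMN_1248003, ILMN_1216885, ILMN_3144200 and ILMN_2620381) were detected on 0 arrays. The tested probe differed by 0.51 (SE 0.13, adjusted p = 0.845 in limma's test), by 0.50 on chip 1 and 0.51 on chip 2. P2ry12, a microglial ADP receptor, differed by 0.26 (SE 0.13), by 0.58 on chip 1 and −0.069 on chip 2. Microglia markers lay between 8.30 and 8.81 in ethanol-exposed samples, against 8.40 to 8.78 in controls, and their part in these values was not tested.

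Of the other ectonucleotidases and ATP release genes, 8 of 16 were tested, with 5 higher, 3 lower and a median of 0.0081. The probes with the smallest p were not the brightest of their genes. For Entpd4, an enzyme of intracellular membranes, probe ILMN_1226174 differed by −0.28 (SE 0.11), while its brightest probe differed by −0.057 (SE 0.072). For Entpd7 probe ILMN_2962031 differed by −0.26 (SE 0.11) and the brightest by 0.12 (SE 0.083), with the opposite sign. The 2 tested of 5 other nucleoside transporters, the lysosomal Slc29a3 and the monoamine-carrying Slc29a4, differed by −0.12 (SE 0.14) and 0.18 (SE 0.26).

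The list of intracellular adenosine and AMP enzymes also holds enzymes of other purines, such as Gda, Hprt and Xdh. Of its genes, 19 of 24 were tested, 7 with higher and 12 with lower means and a median of −0.040. Gda, which deaminates guanine, differed by −0.33 (SE 0.11) at the edge of detection. Its tested probe ILMN_2746947 was detected in 1 ethanol-exposed sample and 5 controls, so it too passed the filter mainly through the group where it was higher. The other Gda probe, ILMN_1251900, was detected on 2 arrays and not tested. For Adal, a deaminase related to Ada, probe ILMN_1248376 differed by −0.30 (SE 0.12), while its brightest probe differed by −0.040 (SE 0.090) and 1 of its 4 tested probes had the opposite sign. Of genes that act with the A2A receptor in striatal neurons, 7 of 8 were tested, 2 with higher and 5 with lower means and a median of −0.10. Ppp1r1b, the phosphoprotein DARPP-32, differed by −0.17 (SE 0.092), and of the metabotropic glutamate receptor Grm5 probe ILMN_1226905 differed by −0.17 (SE 0.13) and the brightest by 0.0077 (SE 0.10). Over the 5 lists 0 brightest probes passed adjustment in limma's test. At an unadjusted p under 0.05 that test called 2 of the 43 tested genes (4.65%), P2rx7 and Gda. Both had passed the filter mainly through the group where they were higher. The 5.79% of all tested probes is no like-for-like share, as it counts every probe and not the brightest of each gene. For the dimmer probes ILMN_1226174 (Entpd4), ILMN_2962031 (Entpd7) and ILMN_1248376 (Adal), limma gave unadjusted p of 0.0250, 0.0308 and 0.0260. The smallest adjusted p in any of the lists was 0.845.

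**Figure D5:**
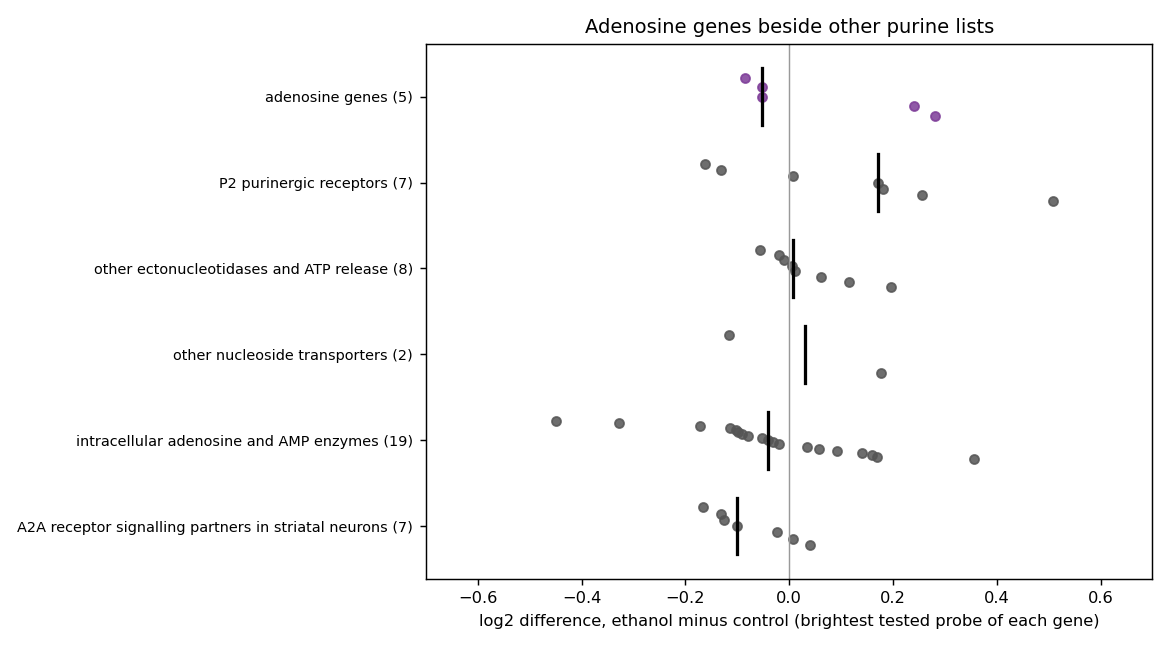
Log2 difference, ethanol minus control (x axis), of the brightest tested probe of each gene, by list, with the number of genes tested in brackets and a black bar at the median. The adenosine genes (purple) lie between −0.085 and 0.28, and P2rx7 is the point farthest right at 0.51.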

How the data were processed

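Total RNA of 12 samples was measured on Illumina bead arrays. One deposited table gives linear intensities per probe, unnormalized between arrays, each with a detection p-value, per the file headers. A second deposited table gives intensities whose quartiles are equal in all samples, as after quantile normalization. GenomeStudio 1.9.0 is named in the submitters' processing notes, and its background setting is not given in the sources used here. With neqc of limma 3.58.1 (R 4.3.3), the background was estimated from the detection p-values and removed, 16 was added, and values were quantile normalized and put on the log2 scale. The added 16 makes differences of dim probes smaller.

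A probe was tested if its detection p was under 0.05 on 6 or more arrays (20296 of 45281). For each probe lmFit and eBayes compared the groups over all 12 arrays without covariates, two-sided, with Benjamini-Hochberg adjustment over all tested probes. Interaction of group and chip was tested likewise. Correlations used 100000 permutations of the samples, and their adjusted p-values cover the family named beside them. Symbols came from GEO's platform annotation (34885 probes with 1 symbol, 18 with several, 10378 with none), and 34807 were found by gene ID in RefSeq (GRCm38.p6), which changed 0 symbols. The arrays come with no stated build. The tests were first tested on simulated data, with 200 of 20296 probes changed in each of 5 runs. At an adjusted p under 0.05 they recovered 13.2% of 1.25-fold, 64% of 1.5-fold, 91.2% of 2-fold and 98.8% of 3-fold changes. Small changes were thus mostly missed there.

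All probes of the 10 genes are described. From each purine list, the probes with an unadjusted p under 0.05 and the 2 with the smallest p were named, and for each adenosine gene the 3 genes most correlated with it. The genes and lists were chosen with earlier results of these data known. Same-numbered samples of the groups share a chip and a number, and their deviations from the group means did not pair them. Arrays hold no read depth, and the precision is limited by how many there were.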

Additional observations from a re-analysis of the deposited data

How the results depend on the processing

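Under 27 alternatives (background, offset, normalization, the authors' normalized intensities, filters, chip, replicate number, eBayes settings and samples left out) 0 adenosine probes and 0 probes in all passed adjustment, and the ethanol effect on chip 2 against chip 1 also kept 0 calls under its 14 alternatives. Entpd2 had higher means in ethanol-exposed samples under all 27, by 0.15 without ethanol 3 and ethanol 4 up to 0.33 without ethanol 2. At an unadjusted p under 0.05, 0 adenosine probes passed with median scaling, on chip 1 alone and without ethanol 3 and ethanol 4, 2 passed without control 1, and 1 passed under each of the others. On chip 2 alone that probe was Adk ILMN_2455920. The 2 without control 1 were Entpd2 and Slc29a2 ILMN_2592247 (unadjusted p = 0.0495 for the latter in limma's test). Entpd2 had an unadjusted p of 0.0576 on chip 1 alone and 0.132 on chip 2 alone in limma's test. All probes at an unadjusted p under 0.05 numbered 1010 to 2420, the highest without the filter, which tests more probes, and 2051 on chip 2 alone. Some signs turned. With chip 1 alone these were Adk (0.17, 0.11 and 0.17 for its 3 probes) and the dimmer Slc29a1 probe (−0.076), and with chip 2 alone the dimmer probes of Slc29a2 (−0.069) and Nt5e (−0.011). The dimmer Nt5e probe was at −0.0045 with median scaling and −0.10 without ethanol 3 and ethanol 4. Leaving out each array in turn gave −0.044 to 0.090 for this probe, −0.18 to 0.0031 for the brighter Nt5e probe, −0.096 to 0.0081 for Adk ILMN_2986899 and −0.081 to 0.014 for Adk ILMN_2702471. The cause was not tested. For Slc29a2, leaving out each array in turn gave 0.14 to 0.33 for ILMN_2592247 and 0.081 to 0.24 for ILMN_2743421, and without background correction they differed by 0.078 and 0.065. Under stricter filters Slc29a2 was no longer tested, by either probe in 1 and by ILMN_2743421 in both. With the replicate block 0 probes passed, and Entpd2 stayed at 0.28 (adjusted p = 0.697 in limma's test). Same-numbered samples had correlated deviations between −0.138 and 0.277, and 2 of 6 ethanol-exposed samples matched their own number best. Signal near background limits Slc29a2, Adora3, Ada and Entpd1.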

Other observations

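Nt5e ran against markers of the neurogenic niche, the source of new neurons beside the striatum. These markers, 7 of 10 of them tested, had a mean log2 intensity between 7.06 and 8.00 in ethanol-exposed samples, against 7.09 to 7.39 in controls, highest in ethanol 6, ethanol 5 and ethanol 1. The brighter Nt5e probe was lowest in the same ethanol 5 and ethanol 6. The relation had r = −0.744 and rho = −0.671 (permutation p = 0.00615 and 0.0195, n = 12) and did not pass adjustment over 60 relations (adjusted p = 0.173 and 0.234). Pearson's r was −0.496 without ethanol 5 and ethanol 6, −0.741 on chip 1 and −0.577 on chip 2. Ependyma markers, 4 of 6 tested, also ran against Nt5e, with r = −0.538 and rho = −0.678 (permutation p = 0.0646 and 0.0189, adjusted p = 0.431 and 0.234). Their r was −0.928 on chip 1, −0.750 on chip 2 and −0.613 without ethanol 1 and ethanol 4, so the relation is not particular to the niche. Within the groups, Nt5e had r = −0.894 with niche markers in ethanol-exposed samples and −0.620 in controls. Over all 12 samples the brightest Adk probe had r = −0.624 and rho = −0.434 with niche markers (permutation p = 0.0299 and 0.161, adjusted p = 0.299 and 0.689). That r was −0.392 on chip 1, −0.877 on chip 2 and −0.208 without ethanol 5 and ethanol 6. For Adk it was −0.936 in ethanol-exposed samples but 0.572 in controls, so the controls did not share the sign.

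The genes whose probes followed the adenosine genes most closely over the 12 samples, after group means were subtracted, were Trim37 (r = 0.963), Oxr1 (0.934) and Ccdc50 (0.921) for the brightest Adk probe. For Nt5e they were Nrn1l (0.940), Rab26 (0.908) and Slc35f3 (0.894), and for Entpd2 Ngb (0.897), Ipo8 (0.894) and Zcchc18 (0.893). For Slc29a1 they were 1700001O22Rik (0.906), Kbtbd2 (0.905) and Scrn1 (0.898), and for Slc29a2 Ring1 (0.862), Pcgf2 (0.857) and Nhlrc2 (0.856). Each was picked as the highest of all tested probes of other genes, in 12 samples that share chips and tissue content, and is a description only. No sample stood apart from the rest of its group in any of the 34 groups of 6 values (17 adenosine probes in both groups) by Dixon's criterion.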
